A study of Homo sapiens with 4 samples.

Results

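Human microglia-like cells grown from the H9 embryonic stem cell line were profiled by single-cell RNA sequencing, and the results here concern 656 cells of 16937 kept cells (3.87%) that carried many transcripts of genes switched on for DNA replication. The 12 cultures of the study fell into 4 conditions of 3 cultures, treated in parallel. Ctrl received the vehicles DMSO and PBS, Sema received semagacestat at 2 µM for 22 h with PBS, LPS received DMSO with lipopolysaccharide at 200 ng/mL over the last 6 h, and SemaLPS received both agents. Semagacestat blocks γ-secretase, the protease that cuts Notch, APP and other membrane proteins, and LPS is a bacterial cell wall product that activates macrophages through TLR4. All cultures shared the same line, a week (7 days) in a medium with TGF-β, IL-34 and cholesterol before treatment, and actinomycin D at 5 µM during collection. They are wells of 1 stem cell line, and each p-value rests on how far these wells vary, not on how donors would.

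The cells were chosen by a rule on their own transcripts, applied to every kept cell. The summed unique molecular identifiers (UMIs, 1 per captured transcript) of CDC6, DTL, CLSPN, FAM111B, MCM10, CCNE2, CDT1, E2F8 and WDR76 had to reach 2 per 10000 UMIs of the cell. The summed UMIs of MKI67, TOP2A, CCNB1, CCNB2, UBE2C, CENPF and BIRC5, genes of G2 and mitosis, had to stay under 5 per 10000. Levels of these 16 genes are therefore a description of the choice and are given with no test. Of 1749 cells whose replication genes reached the threshold, 1093 (62.5%) had the G2 and mitosis genes at 5 or more and were not members. The other cells are these 1093, a further 509 with only the G2 and mitosis sum high, and 14679 with neither.

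When a cell commits to divide, cyclin-dependent kinases inactivate RB proteins and release E2F transcription factors, which switch on the genes for loading the MCM helicase at origins, for the replication fork and for nucleotides. Histone genes are switched on with DNA synthesis itself, and the genes of mitosis follow later through the DREAM and MuvB complexes. Microglia divide slowly in the brain and depend on CSF1 receptor signalling, here fed by IL-34, for survival and division.

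The start-site sequences of rule genes are shown because they carry the letters by which the 2 gene sets of the rule differ. Windows run from 80 bases before to 20 bases after the start of the gene, as given by RefSeq on GRCh38.p14. Capitals mark an E2F-type match in the first 4 and the hexamer TTTGAA, the cell cycle homology region (CHR) of mitotic genes, in the last 2.
DTL, chr1:212035668-212035767, plus strand: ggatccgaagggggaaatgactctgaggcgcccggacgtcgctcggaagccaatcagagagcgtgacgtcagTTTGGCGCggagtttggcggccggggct
CDC6, chr17:40287799-40287898, plus strand: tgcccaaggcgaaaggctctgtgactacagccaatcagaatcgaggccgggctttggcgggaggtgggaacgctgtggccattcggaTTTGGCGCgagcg
CDT1, chr16:88803709-88803808, plus strand: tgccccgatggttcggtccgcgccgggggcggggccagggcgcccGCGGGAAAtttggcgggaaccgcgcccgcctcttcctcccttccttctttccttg
CLSPN, chr1:35769959-35770058, minus strand: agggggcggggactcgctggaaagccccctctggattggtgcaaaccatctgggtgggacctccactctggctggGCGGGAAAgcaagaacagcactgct
MKI67, chr10:128126404-128126503, minus strand: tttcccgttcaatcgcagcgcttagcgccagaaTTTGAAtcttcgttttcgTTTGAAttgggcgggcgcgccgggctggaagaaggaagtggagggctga
CCNB2, chr15:59105066-59105165, plus strand: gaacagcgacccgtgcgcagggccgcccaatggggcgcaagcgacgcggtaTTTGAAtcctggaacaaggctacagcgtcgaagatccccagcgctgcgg

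The search covered the whole promoter entry of each gene, 250 bases before to 50 after its start, on both strands. An E2F-type match was any of TTTCCCGC, TTTGGCGC, TTTCGCGC or TTTGCCGC, and such a match stood in 908 of 27305 promoters (3.33%). TTTGAA stood in 4212 (15.4%). Of the 9 replication genes of the rule, 5 had a promoter entry, 4 of them held an E2F-type match and 0 held TTTGAA. Of the 7 G2 and mitosis genes of the rule, 5 had an entry, 0 held an E2F-type match and 4 held TTTGAA. Outside the rule, the E2F-type match stood in 8 of 15 promoters of origin licensing and helicase genes, in 7 of 22 of fork genes, in 2 of 15 of nucleotide supply genes and in 3 of 24 of further G2 and mitosis genes, and TTTGAA in 14 of those 24. A match is a run of letters and not a measured binding site.

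The chosen cells carried the rule genes broadly, not 1 gene alone. CLSPN, which carries the ATR checkpoint signal at the fork, had a UMI in 91.8% of members, against 6.21% of the 14679 cells with neither sum high. DTL, part of the ligase that destroys CDT1 during replication, had a UMI in 82.9% against 2.19%, and CDC6, a loader of the MCM helicase, in 75.9% against 2.76%. E2F8, a late repressor of E2F genes, stood apart with 22.0% of members against 62.6% of the cells with a high G2 and mitosis sum. Median depths were 32148 UMIs in members, 36706 in cells with a high G2 and mitosis sum and 29431 in the rest. A member had a median of 6 of the 9 replication genes with a UMI, 82.0% had 5 or more, and 9 members had 1. Just inside the threshold, 80 members had a sum of 2 to 2.5 per 10000, and 106 cells lay just outside it, at 1.5 to 2.

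The 656 cells came from both libraries, 368 and 288, and 0 of their barcode sequences occurred in both, against 24 among all kept cells. Members' UMIs per culture ranged from 911916 in LPS-3 to 3379375 in Sema-1. The share of cells over 60000 UMIs was 4.27% in members and 3.13% in the other cells, and the share whose leading hashtag was under 10 times the next was 16.3% against 16.8%. Median mitochondrial shares were 7.75% and 8.14%. Markers of the labelled cell type were present: 12 macrophage genes summed to 9357 ± 441 CPM (counts per 1e6 UMIs; SD, n = 12 cultures, range 8668 to 10271) in members and to 9805 ± 292 in the cells with neither sum high. Of the other cell types looked for, erythroid markers (7 genes) were at 0 UMIs in all 12 cultures, and mast cell, granulocyte precursor, megakaryocyte, pluripotent and T cell markers summed to at most 1.86 CPM in any culture's members. Fibroblast markers reached 3.38 CPM, neural markers 27.5 CPM and endothelial markers 68.5 CPM. The last of these was nearly all PECAM1, which macrophages also express.

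The label S-phase was checked against genes that the rule did not use, and the histone genes did not follow it. The 19 genes of origin licensing and the helicase summed to 1166 CPM in members, 1336 in the 1093 cells with both sums high and 170 in cells with neither sum high. Members were above the 1093 cells in 2 of 12 cultures. In the same order the fork list summed to 1323, 1953 and 311 CPM. Checkpoint and repair summed to 885, 1206 and 155 CPM and chromatin assembly to 1975, 3362 and 505 CPM. In each of these further lists members were above the 1093 cells in 0 of 12 cultures. Some single genes went against their lists and were higher in members than in the 1093 cells. MCM6 stood at 105, 89.2 and 12.4 CPM in the same order, MCM3 at 148, 139 and 20.1, and the mismatch repair gene MSH6 at 103, 77.8 and 19.6. E2F1, the activator that opens the programme, was at 61.8, 52.0 and 2.73 CPM. The 16 replication-dependent histone genes, in contrast, summed to 193 CPM in members (range 167 to 221), 2100 in the 1093 cells (range 1526 to 2499) and 98.7 in the rest. The linker histone HIST1H1B was at 6.28 CPM in members and 260 CPM in the 1093 cells, and the core histone HIST1H4C at 109 and 1053. These mRNAs mostly lack a poly(A) tail, and the part of poly(A) capture in their levels was not tested.

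Some genes of nucleotide supply and E2F feedback were also well below the 1093 cells. Unlike the histones, they stood far above the cells with neither sum high. RRM2, the regulated subunit of ribonucleotide reductase, stood at 19.8 CPM in members, 194 in the 1093 cells and 0.905 in cells with neither sum high, and TYMS, which makes thymidylate, at 163, 496 and 10.2. E2F7, a repressor like E2F8, was at 4.70, 30.0 and 0.338 CPM. SLBP, which binds histone mRNA, was at 138, 132 and 38.3 CPM, so that it was no lower in members. Since the histone level sets the members apart from what the label names, they are called S-gene-high cells here. The class values and their ranges over cultures are descriptions, because the rule that sorted the cells read the same transcriptomes.

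**Figure D1:**
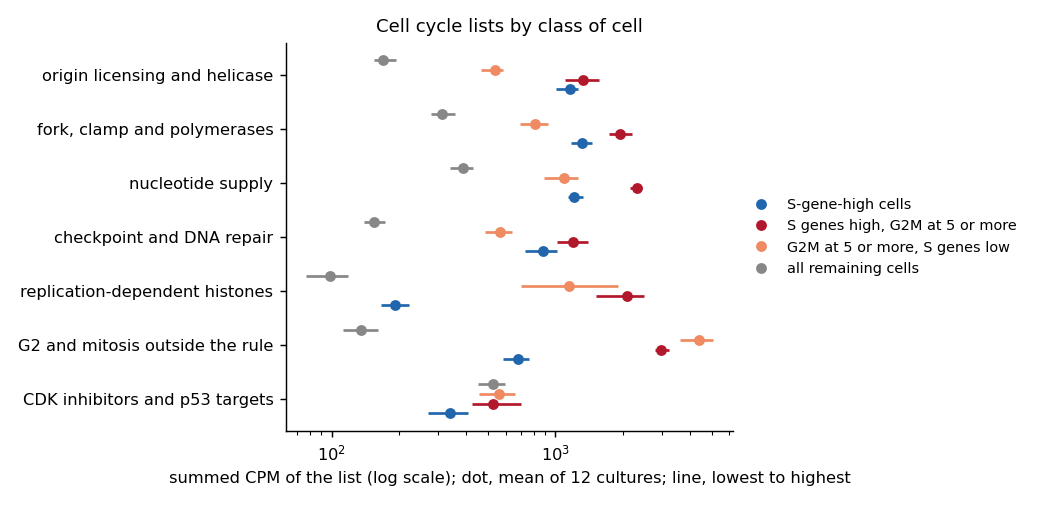
Summed level of 7 cell cycle gene lists (horizontal axis, CPM on a log scale) in 4 classes of cell; dots are means of 12 cultures and lines run from the lowest to the highest culture. In S-gene-high cells (blue) the histone list sits at 193 CPM, between the 98.7 CPM of the remaining cells and the 2100 CPM of cells that also have high G2 and mitosis genes, while their licensing list, at 1166 CPM, lies near the 1336 CPM of the latter. Their fork list, at 1323 CPM, lies under the 1953 CPM of those cells and above the 311 CPM of the remaining cells.

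S-gene-high cells differed among themselves along the G2 and mitosis sum. In 258 of them this sum was under 2 per 10000 UMIs and in 398 it was 2 to 5. The nucleotide supply list summed to 939 CPM in the first set and 1433 CPM in the second, the fork list to 1062 and 1502, and the histones to 150 and 224, higher at 2 to 5 in 12 of 12 cultures for each. RRM2 was at 5.79 and 30.7 CPM, TYMS at 98.4 and 213, and MYBL2, the B-Myb factor that turns on mitotic genes, at 12.7 and 43.0. E2F1 differed less, with 51.8 and 70.0 CPM. CDK inhibitors and p53 targets showed no order, with 332 and 342 CPM and the higher value at 2 to 5 in 6 of 12 cultures. The share of S-gene-high cells under 2 was 33.3, 28.6 and 18.4% in the Ctrl cultures, 24.5, 34.3 and 26.1% in Sema, 54.4, 63.9 and 60.0% in LPS, and 60.0, 61.5 and 50.0% in SemaLPS. The 6 cultures with LPS all lay above the 6 without it. As this sum belongs to the rule, the shares are given as a description. Over all S-gene-high cells of a culture, the genes of this sum stood at 275 to 311 CPM without LPS and 176 to 227 CPM with it. The G2 and mitosis genes outside the rule did not separate in this way. They summed to 651 to 764 CPM without LPS and 582 to 724 CPM with it, with overlap. Over the 7 genes of the rule's own sum the median log2 difference with LPS was 0.20. Most of them were thus not lower, and TOP2A, which was, is given below.

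The first question put to the treatments was how many S-gene-high cells each culture held. They made up 5.05, 3.41 and 3.32% of kept cells in the Ctrl cultures, 7.72, 5.56 and 4.45% in Sema, 3.91, 2.63 and 1.93% in LPS and 3.61, 2.20 and 2.97% in SemaLPS. The exact 95% binomial interval was 6.36 to 9.26% for the highest culture, Sema-1, and 1.26 to 2.84% for the lowest, LPS-3; these intervals cover counting error only. The mean was 2.88% with LPS and 4.92% without, a difference of -2.04 percentage points, and the value with LPS was lower in 6 of 6 pairs of the same number. An exact two-sided permutation test within inhibitor level gave p = 0.015, and 0.09 after adjustment over the 6 share tests. Paired by culture number, the exact p was 0.0312, the smallest possible, and 0.188 adjusted. Leaving out 1 culture at a time gave an adjusted p of 0.03 without LPS-1, where the difference was -2.31 points, and of 0.09 to 0.21 without any of the other 11. The groups overlapped, since LPS-1 and SemaLPS-1 lay above both Ctrl-2 and Ctrl-3.

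With the inhibitor the mean share was 4.42% and without it 3.38%, a difference of 1.04 points (exact permutation p = 0.165, adjusted 0.4). Without LPS the means were 5.91 ± 1.66% in Sema and 3.93 ± 0.97% in Ctrl (SD, n = 3), with an exact p of 0.2 where 0.1 is the smallest possible. With LPS they were 2.93 ± 0.71% and 2.82 ± 1.00%, with an exact p of 0.9. Cells with a high G2 and mitosis sum made up 5.41% of kept cells in LPS-2, the lowest culture, and 15.2% in Ctrl-1, the highest. Among all cells with either class, S-gene-high cells made up 27.8% with LPS and 30.2% without, a difference of -2.35 points with an exact permutation p of 0.365.

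**Figure D2:**
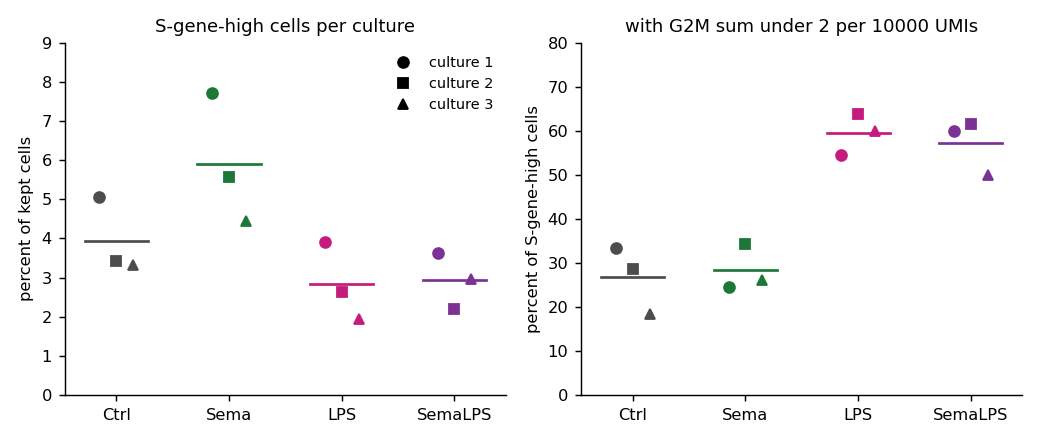
Left, S-gene-high cells as a percent of kept cells in each culture; right, the percent of those cells whose G2 and mitosis sum is under 2 per 10000 UMIs; symbols mark the culture number and lines the mean of 3. The left panel runs from 1.93% in LPS-3 to 7.72% in Sema-1 with overlapping groups, and in the right panel the 6 cultures with LPS, 50.0 to 63.9%, lie above the 6 without, 18.4 to 34.3%.

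S-gene-high cells responded to LPS across much of their transcriptome. Summed counts of the members of each culture were tested with edgeR, and 3825 of 9508 genes (40.2%) passed an adjusted p of 0.05, 1914 higher (20.1%) and 1911 lower (20.1%). The NF-κB and cytokine list moved nearly as a whole, with 31 of 32 tested genes rising and 1 falling, and with a median log2 change of 3.65 against -0.01 over all genes. CXCL8, which draws neutrophils, was at 57.0, 23.0 and 25.6 CPM in Ctrl, 54.0, 27.8 and 24.3 in Sema, 1203, 1892 and 1019 in LPS and 1537, 1653 and 1202 in SemaLPS. Every culture with LPS lay far above every culture without it, and the log2 change was 5.25 (SE 0.16, adjusted p = 7.4e-22). IL1B rose by 4.13 on the log2 scale, SOD2, the mitochondrial superoxide dismutase, by 3.47, CXCL10 by 5.66, TNIP3 by 5.12 and CCL20 by 4.90. CCL8 had the largest rise, 7.07 (SE 0.62), from 0 to 0.9 CPM without LPS to 17.6 to 126.9 CPM with it, and CH25H, which makes 25-hydroxycholesterol, rose by 6.16.

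Receptors of resting microglia fell in the same cells. Of 21 tested homeostatic genes 15 fell and 3 rose, against a background of 20.1% in each direction. GPR34, a lysophosphatidylserine receptor, was at 242, 295 and 293 CPM in Ctrl, 263, 246 and 275 in Sema, 64.1, 26.5 and 33.1 in LPS and 32.0, 36.0 and 48.5 in SemaLPS. The groups with and without LPS were well apart, with a log2 change of -2.67 (SE 0.11). CX3CR1, the fractalkine receptor, changed by -1.98, MERTK, which takes up dying cells, by -2.23, CYSLTR1, a leukotriene receptor, by -2.88 and the growth factor IGF1 by -2.54. SUSD3 changed by -2.67. Of the other lists, interferon genes rose in 13 of 18 and fell in 0, glycolysis and hypoxia genes rose in 9 of 14 and fell in 0, lysosome genes fell in 10 of 21 and rose in 3, and cholesterol synthesis genes fell in 7 of 16 and rose in 2. Disease-associated microglia genes were even in count, with 7 of 21 in each direction. Their median log2 change was 0.03 against -0.01 over all genes. Their sum, which weighs highly expressed genes most, was 50467 ± 2493 CPM without LPS and 57230 ± 3082 CPM with it (SD, n = 6 each), with overlap.

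Growth factor signalling and growth genes moved in different ways. CSF1R, the receptor for CSF1 and IL-34, was at 172, 181 and 187 CPM in Ctrl, 181, 179 and 167 in Sema, 93.4, 59.6 and 76.8 in LPS and 93.4, 91.0 and 80.1 in SemaLPS. No culture with LPS reached a culture without it, and the log2 change was -1.08 (SE 0.08, adjusted p = 8.0e-13). SPRY2, a feedback inhibitor of receptor tyrosine kinases, changed by -2.24. Of the 12 tested genes of the CSF1 receptor signalling list 6 rose and 6 fell, where 40.2% of all genes were called. The median log2 change of the list was -0.008 against -0.01 over all genes. Its sum, which weighs highly expressed genes most, was lower, at 927 to 1018 CPM without LPS and 810 to 889 CPM with it, with no overlap. MYC, in contrast, was at 67.8, 51.3 and 40.5 CPM in Ctrl, 56.3, 51.6 and 52.2 in Sema, 129, 106 and 76.8 in LPS and 107, 125 and 125 in SemaLPS, a rise of 1.06 (SE 0.10). Of the 16 genes of growth and ribosome biogenesis 10 rose and 0 fell, where 20.1% of all genes rose and 20.1% fell. Among those that rose were NOP56, part of the box C/D snoRNP, by 0.60, SRM, spermidine synthase, by 0.48 and NPM1, nucleophosmin, by 0.36.

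Of the 20 tested genes of the E2F, RB and G1/S list 4 rose and 3 fell with LPS, a share no larger than the 40.2% of all genes. The sum of the list, which holds RB1, was 956 to 1065 CPM without LPS and 839 to 940 CPM with it, with no overlap. RB1, the retinoblastoma protein that holds E2F, was at 258, 272 and 290 CPM in Ctrl, 240, 258 and 270 in Sema, 131, 133 and 163 in LPS and 158, 155 and 168 in SemaLPS. The lowest culture without LPS stood above the highest with it, and RB1 changed by -0.82 (SE 0.06, adjusted p = 3.9e-12). The kinase CDK6, which inactivates RB, ranged from 29.7 to 49.8 CPM in the 6 cultures without LPS and from 62.3 to 87.5 CPM in the 6 with it. It rose by 0.77 (SE 0.11), and CCND1, the cyclin D1 that activates it, by 0.46 (SE 0.08), both with no overlap between cultures with and without LPS.

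The 10 tested CDK inhibitors and p53 targets split into 4 that rose and 3 that fell, with a median of -0.09, where 20.1% of all genes rose and 20.1% fell. The antiproliferative gene BTG2 was at 66.8, 64.2 and 76.0 CPM in Ctrl, 74.4, 67.9 and 64.7 in Sema, 190, 171 and 171 in LPS and 181, 152 and 159 in SemaLPS, a rise of 1.32 (SE 0.07, adjusted p = 1.4e-15). CDKN2B, the CDK4 and CDK6 inhibitor p15, rose by 2.90 (SE 0.29), from 0.8 to 2.2 CPM to 9.9 to 18.9 CPM, and MDM2, the ligase for p53, by 0.69. SESN1, a stress-induced p53 target, changed by -0.96. CDKN1A, the inhibitor p21, was named after its values were seen and rose by 0.56 (SE 0.12), with 34.4 to 67.7 CPM without LPS and 55.8 to 74.1 with it. In library 1 alone its adjusted p was 0.0821. The sum of the list of 12, which holds BTG2, was 296 ± 16.3 CPM without LPS and 384 ± 14.5 CPM with it (SD, n = 6 each). BTG2 alone went from 64.2 to 76.0 CPM without LPS to 152 to 190 CPM with it, so the higher sum does not describe the list as a whole.

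**Figure D3:**
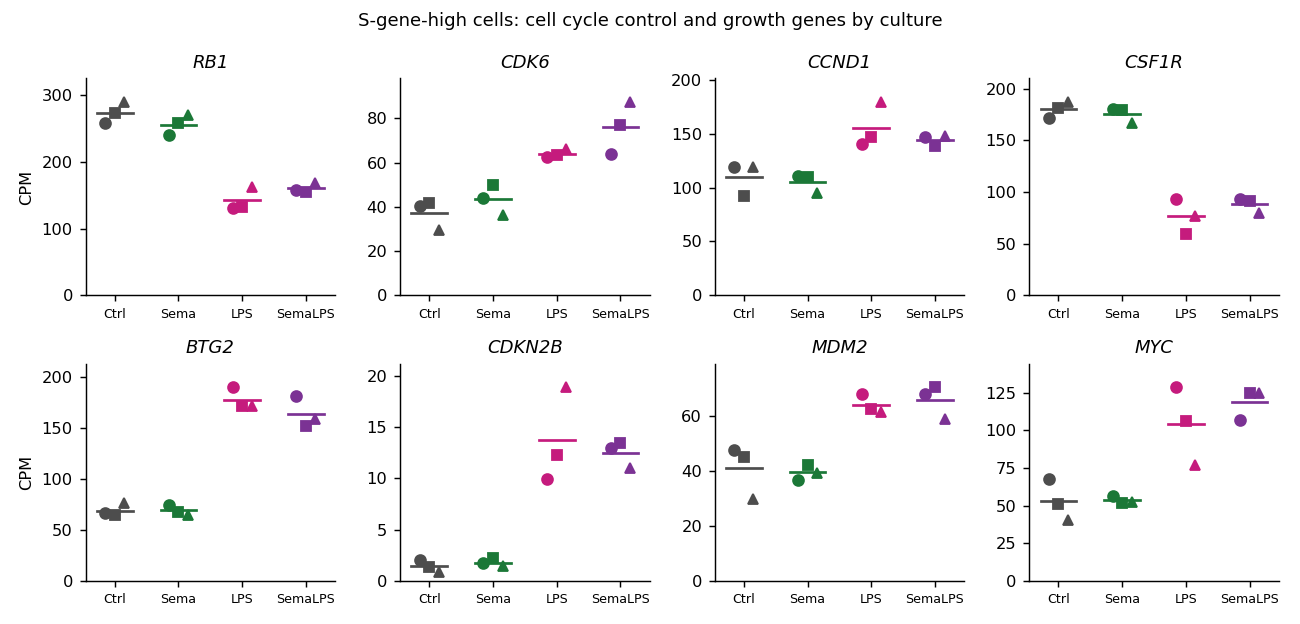
Level of 8 genes in S-gene-high cells (vertical axis, CPM) in each of 12 cultures by condition; circles, squares and triangles are culture numbers 1, 2 and 3 and lines are means of 3. RB1 and CSF1R are lower, and CDK6, CCND1, BTG2, CDKN2B, MDM2 and MYC higher, in all 6 cultures with LPS than in all 6 without.

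Most single genes of the replication machinery were not called, while the sum of the fork list was lower with LPS. Of 19 licensing and helicase genes 1 rose and 2 fell, of 27 fork genes 2 rose and 5 fell, of 16 nucleotide genes 5 rose and 2 fell, of 12 chromatin assembly genes 1 rose and 1 fell, of 6 tested histone genes 0 rose and 1 fell, and of 24 further G2 and mitosis genes 2 rose and 4 fell. Each share lies near or below the 40.2% of all genes. The fork list summed to 1371 to 1459 CPM without LPS and 1172 to 1314 CPM with it, with no overlap. The licensing list summed to 1238 ± 31.3 and 1093 ± 70.8 CPM (SD, n = 6 each), with overlap. Chromatin assembly summed to 2026 and 1923 CPM and the histones to 206 and 180 CPM, also with overlap. The nucleotide list stood at 1219 CPM in both. SHMT1, which feeds one-carbon units to thymidylate synthesis, had the clearest fall, from 16.1 to 29.7 CPM without LPS to 6.6 to 11.7 CPM with it (log2 change -1.33, SE 0.18). PRIM1, the primase subunit that starts each Okazaki fragment, changed by -0.45 and RFC1, of the clamp loader, by -0.37, while DCTPP1, which clears modified dCTP, rose by 0.34. The helicase subunits MCM3 and MCM5 changed by -0.22 and -0.23 and ORC6 by 0.23, and these calls were weak. MCM3 was lost without LPS-1 or SemaLPS-1 and ORC6 without Sema-3. MCM5 was lost without any of Ctrl-1, SemaLPS-1, Ctrl-2, LPS-2, SemaLPS-2 and Sema-3. Beyond left-out cultures, MCM3 was lost in library 2 alone and ORC6 in each library alone. MCM5 was lost in DESeq2, in each library alone and at an S threshold of 3 per 10000. The highest adjusted p was 0.156 for MCM3, 0.147 for MCM5 and 0.255 for ORC6.

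Checkpoint and repair genes fell in 5 of 21 and rose in 0, with a median of -0.15 against -0.01 over all genes, where 20.1% of all genes fell. Among them were the helicases BLM (-0.44) and BRIP1 (-0.38) and the homologous recombination genes BRCA1 (-0.27) and BARD1 (-0.35). BRCA1 was at 88.3, 94.5 and 87.5 CPM in Ctrl, 85.7, 105 and 88.3 in Sema, 65.5, 72.9 and 85.0 in LPS and 82.0, 67.7 and 88.2 in SemaLPS, so that the groups overlapped. Each of these 4 calls was lost under some alternative. BRCA1 was lost without LPS-1 and without SemaLPS-2, BARD1 without LPS-1, and BRIP1 without any of 7 cultures (Ctrl-1, LPS-1, SemaLPS-1, Sema-2, SemaLPS-2, Sema-3 and LPS-3). With only library 1, all 4 of these calls were lost. The highest adjusted p was 0.473 for BLM, 0.142 for BARD1, 0.352 for BRCA1 and 0.382 for BRIP1. The sum of the checkpoint and repair list was 931 to 1013 CPM without LPS and 735 to 878 CPM with it, with no overlap.

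Rule genes are given beside these as a description. The median log2 difference with LPS was 0.20 over the 7 G2 and mitosis genes and -0.12 over the 9 replication genes. Most of the 7 were therefore not lower with LPS, although their sum was, at 198 CPM against 288 CPM. TOP2A was at 80.1, 106 and 142 CPM in Ctrl, 88.5, 97.0 and 103 in Sema, 42.9, 26.5 and 44.9 in LPS and 33.0, 31.0 and 32.3 in SemaLPS, a difference of -1.51 on the log2 scale, while CENPF differed by -0.52, CDT1 by -0.56, CDC6 by -0.34 and CCNE2 by 0.31. Cells with a low G2 and mitosis sum, a sum that counts TOP2A, made up more of the S-gene-high cells in every culture with LPS, as given above. Their part in the LPS differences of cell cycle genes was not tested. In 12 of 12 cultures those cells also had lower licensing, fork and checkpoint sums.

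The inhibitor left few differences that passed the test. On average over both LPS levels 1 of 9508 genes (0.0105%) passed in edgeR, with 448 at an unadjusted p under 0.05, and 0 passed in DESeq2. That gene was TIMP3, an inhibitor of matrix metalloproteinases, at 10.8, 35.8 and 16.5 CPM in Ctrl, 23.8, 63.0 and 103 in Sema, 20.8, 8.52 and 10.6 in LPS and 35.6, 81.8 and 53.6 in SemaLPS. The log2 change was 1.72 (SE 0.31, adjusted p = 0.0405), and Sema-1 lay below Ctrl-2, so the groups overlapped. The counts rested on few cells. In Sema-3, 265 of 287 TIMP3 UMIs (92.3%) came from 1 cell, in SemaLPS-3 64 of 73 did, and over all cultures 5 cells held 57.5% of 930 UMIs. The share of S-gene-high cells with a TIMP3 UMI was 20.7% in Ctrl, 20.1% in Sema, 26.3% in LPS and 24.6% in SemaLPS, against 30.7% of the other cells. The call was lost in 13 of 22 alternatives, with an adjusted p of 0.113 without Sema-3, 0.222 without Ctrl-1, 0.181 without Ctrl-3, 0.121 without Sema-2, 0.189 without SemaLPS-2, 0.062 without LPS-1 and 0.0905 without LPS-3.

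**Figure D4:**
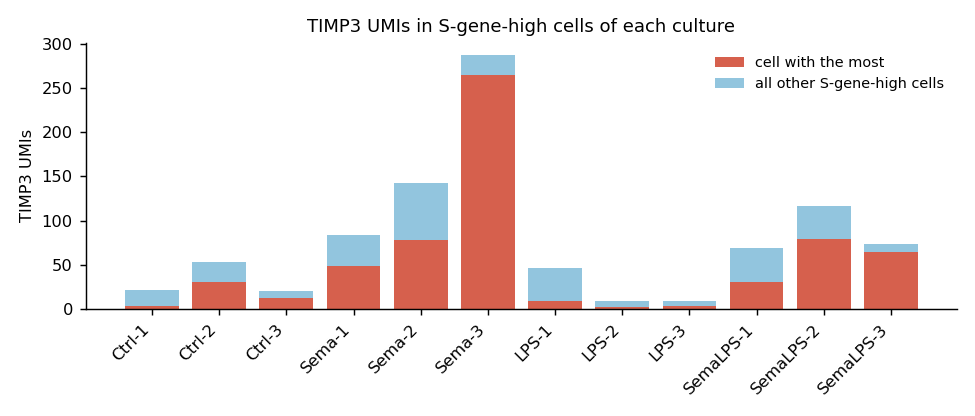
TIMP3 UMIs of S-gene-high cells in each culture (bar height, counts from 0), with the cell holding the most in red and all its fellow S-gene-high cells in blue. In Sema-3 a single cell holds 265 of 287 UMIs.

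At each LPS level alone 0 of 9508 genes (0%) passed, both for Sema against Ctrl (436 at an unadjusted p under 0.05) and for SemaLPS against LPS (506), and DESeq2 also gave 0 in both. Among the cell cycle, growth and microglial lists 0 genes rose or fell with the inhibitor, and the licensing list had a median log2 change of -0.01 and the fork list of -0.01. HES1, a direct Notch target, lay under the limit on low counts, with 1 to 10 UMIs per culture. It stood at 2.15, 1.45 and 3.38 CPM in Ctrl, 1.78, 0.466 and 3.30 in Sema, 4.27, 7.19 and 6.58 in LPS and 0.973, 2.66 and 2.09 in SemaLPS. The SemaLPS cultures lay below the LPS cultures, on 2 to 4 against 6 to 10 UMIs, and the Sema and Ctrl cultures overlapped.

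Compared with the other cells of the same culture, S-gene-high cells differed in functions beyond replication. Of 9353 genes outside the cell cycle lists 4605 (49.2%) passed the edgeR threshold, 2029 higher (21.7%) and 2576 lower (27.5%). The count filter read the S-gene-high sums only. Genes too low in those cells to pass it were left out even where the other cells carried them. With no count filter 5416 of 19060 genes passed, 1731 higher and 3685 lower. As the rule sorted the cells on the same transcriptomes, these differences are given as a description. Several of the genes highest in S-gene-high cells are known to act in dividing cells although they stood outside the fixed lists. CDCA7, a partner of the chromatin remodeller HELLS, ranged from 31.3 to 55.4 CPM (median 45.8) in S-gene-high cells and from 1.55 to 7.08 (median 2.98) in the other cells, a log2 difference of 3.71 (SE 0.09). UNG, which removes uracil from DNA, differed by 2.57, FANCB of the Fanconi core complex by 2.43, MMS22L, which guards forks, by 2.30, TCF19 by 2.27 and ATAD2 by 2.18. Each was higher in 12 of 12 cultures.

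Genes of growth and ribosome biogenesis were higher, with 14 of 16 called higher and 0 lower and a median of 0.41 against -0.03 over all genes. Of all genes outside the cell cycle lists 21.7% were called higher and 27.5% lower. The growth list summed to 2911 CPM in S-gene-high cells, 2916 in cells with a high G2 and mitosis sum and 2100 in cells with neither sum high. NOLC1, DKC1, NOP58 and NOP56, all of the nucleolus, differed by 0.77, 0.72, 0.73 and 0.67, and NOP56 was at 110 ± 25.0 CPM against 68.7 ± 15.7 (SD, n = 12). Immediate-early and heat shock genes were mixed, with 3 of 15 called higher and 8 lower, while their sum was 2638 CPM in S-gene-high cells, 2956 in cells with a high G2 and mitosis sum and 2324 in the rest. Among the single genes named for being lower, ATF3, a stress-induced transcription factor, ranged from 9.52 to 49.0 CPM (median 16.6) against 30.8 to 62.9 (median 45.4), a difference of -1.22 (SE 0.11). IL1RN, the IL-1 receptor antagonist, differed by -1.14, GABARAPL1 of the autophagosome by -1.12, C5AR1, the C5a receptor, by -1.09, CREBRF by -0.99, LYZ, lysozyme, by -0.89 and AHNAK by -0.86. TIMP3 differed most, by -1.88, with 8.44 to 101 CPM against 58.1 to 251. These 8 were lower in 12 of 12 cultures.

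Disease-associated and lysosomal genes were lower by small amounts. Of 21 disease-associated microglia genes 19 were called lower and 0 higher (median -0.21), and of 21 lysosome genes 16 were called lower and 0 higher. Of all genes outside the cell cycle lists 27.5% were called lower and 21.7% higher, and the counts below stand beside the same shares. Both lists were lower still in cells with a high G2 and mitosis sum. The disease-associated list summed to 53849 CPM in S-gene-high cells, 42426 in those cells and 61881 in cells with neither sum high, and the lysosome list to 7161, 6340 and 8084. The tetraspanin CD9 was at 1007 ± 179 CPM against 1557 ± 366 (difference -0.61), LIPA, lysosomal acid lipase, at 278 to 450 (median 327) against 369 to 634 (median 509; -0.62), and LGALS3, galectin 3, differed by -0.38. TYROBP, the signalling adaptor of TREM2, differed by -0.25, and the cathepsins CTSB and CTSS by -0.25 and -0.22. Of the macrophage markers 6 of 12 were lower and 2 higher, with MS4A7 at -0.60 and the CD45 gene PTPRC at -0.36, and of the CSF1 receptor signalling genes 9 of 12 were lower, with CSF2RA at -0.48 and CBL at -0.37. Mitochondrially encoded transcripts were lower in 12 of 13, MT-CYB by -0.19. CDKN1A was at 56.5 ± 13.8 CPM against 122 ± 12.8, and 9 of 10 CDK inhibitors and p53 targets were lower. In cells with a high G2 and mitosis sum the list of 12 was not lower than in cells with neither sum high, at 534 and 525 CPM, against 340 CPM in S-gene-high cells. Median mitochondrial shares and depths of the classes differed as given above, and their part in these differences was not tested.

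The last comparison asked whether S-gene-high cells responded to the treatments as the other cells of their culture did. For LPS, the difference between the 2 responses passed for 218 of 9353 genes (2.33%), 165 with the higher response in S-gene-high cells (1.76%) and 53 with the lower (0.567%). The split moved with the setting: it was 130 and 77 with DESeq2's size factors in edgeR, 124 and 113 at a hashtag ratio of 10 and 37 and 28 in library 2 alone. With no limit on G2 and mitosis genes, which changes the cells, it turned to 422 and 1216. FABP5, a fatty acid binding protein, was at 1212 to 1434 CPM (median 1334) without LPS in S-gene-high cells and at 1661 to 1948 (median 1787) with it, and at 1486 to 1921 (median 1728) and 1428 to 1726 (median 1568) in the other cells. In S-gene-high cells all cultures with LPS lay above all without it, while the other cells' ranges overlapped, and the responses differed by 0.52 (SE 0.06, adjusted p = 4.2e-06). SPP1, osteopontin, was at 26851 to 32485 CPM and 36959 to 44755 CPM in S-gene-high cells and at 32660 to 43617 and 34731 to 46189 in the other cells, a difference of responses of 0.37. The lower SPP1 of S-gene-high cells without LPS, in 6 of 6 cultures, was not seen with LPS, where 3 of 6 cultures had the higher value in S-gene-high cells.

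CD9 was at 852 to 1249 CPM without and 769 to 1384 CPM with LPS in S-gene-high cells and at 1341 to 2194 and 983 to 1523 in the other cells (difference of responses 0.63, SE 0.07). Its ranges overlapped between LPS levels in both classes. EMP1, an epithelial membrane protein, was at 25.0 to 52.8 and 15.9 to 64.1 CPM in S-gene-high cells and at 63.3 to 106 and 17.0 to 28.4 CPM in the other cells (1.28). BCL2A1, an antiapoptotic NF-κB target, was at 20.7 to 40.6 CPM without and 233 to 349 CPM with LPS in S-gene-high cells and at 39.0 to 68.1 and 252 to 334 in the other cells (0.85). RASGEF1B differed by 0.82 and CCSAP, a centriole protein, by 0.74. In the opposite direction, IL7R, the IL-7 receptor, was at 79.2 to 98.2 CPM without and 216 to 271 CPM with LPS in S-gene-high cells and at 69.2 to 79.3 and 285 to 423 in the other cells, a difference of -0.63 (SE 0.07), and IL6ST, the shared receptor of IL-6 cytokines, differed by -0.60. ATF3 differed by 1.31. IFIT1, an interferon-induced gene, differed by 2.19, on 286 UMIs in 57 cells of which 5 cells held 65.4%; its adjusted p reached 0.199 and was past 0.05 without LPS-1, Sema-2 or SemaLPS-2.

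**Figure D5:**
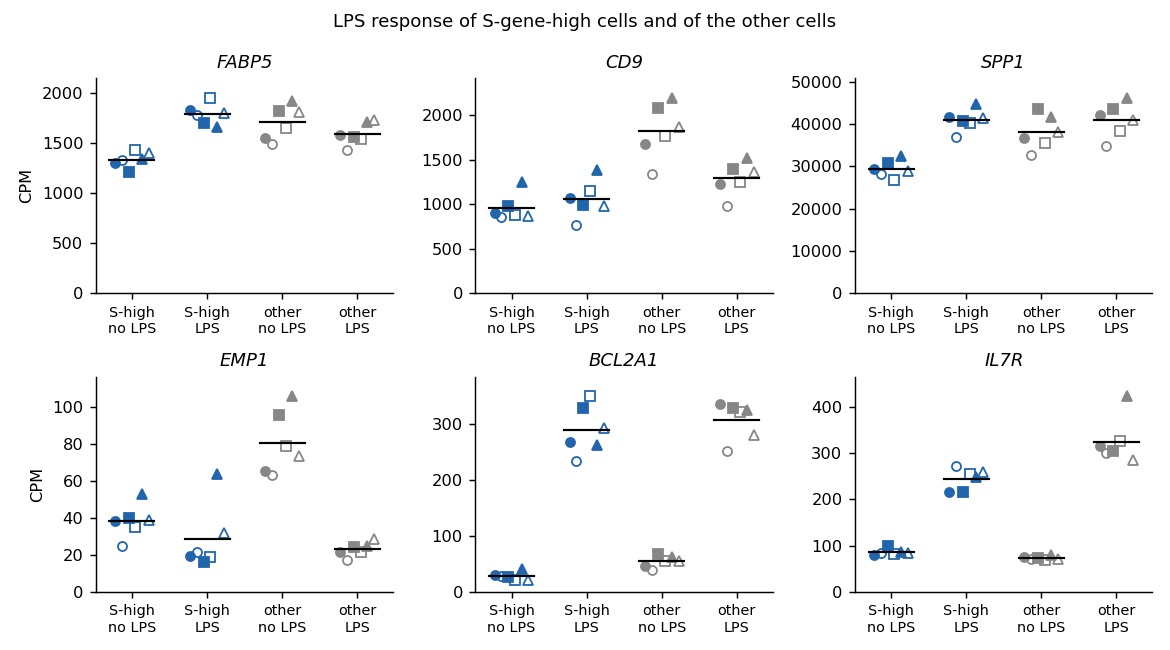
Level of 6 genes (vertical axis, CPM from 0) in S-gene-high cells (blue) and in the other cells of the same cultures (grey), without and with LPS; filled symbols are cultures without the inhibitor and open symbols with it, shapes are culture numbers and lines are means of 6. FABP5 lies at 1661 to 1948 CPM in S-gene-high cells with LPS against 1212 to 1434 CPM without, while the other cells overlap between the LPS levels.

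By list, 6 of 21 disease-associated genes had the higher LPS response in S-gene-high cells and 0 the lower, 5 of 18 interferon genes the higher and 0 the lower, 3 of 16 growth genes the lower and 0 the higher, and 2 of 32 NF-κB and cytokine genes the higher and 0 the lower, where 1.76% of all genes had the higher and 0.567% the lower. In S-gene-high cells the interferon list summed to 267 to 323 CPM without LPS and 291 to 942 CPM with it, a wide spread with overlap. The NF-κB list's median difference of responses was 0.03 against 0.02 over all genes. A higher response means a higher log2 change and not always a stronger rise with LPS. For CD9 and EMP1 the ranges of the other cells were lower with LPS, and BCL2A1 had similar ranges with LPS in both classes. EMP1, RASGEF1B, CCSAP, FABP5 and IL7R kept the call in every alternative run. BCL2A1 lost it where as many other cells as members were drawn (adjusted p = 0.181), CD9 (0.113), SPP1 (0.0842) and IL6ST (0.0546) in library 1 alone and ATF3 (0.0765) in library 2 alone.

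For the inhibitor, the 2 responses differed for 4 of 9353 genes (0.0428%), and in DESeq2 for 0. TIMP3 differed by 1.76 (SE 0.25), with the S-gene-high counts concentrated as described. IL1RN differed by 1.04, G0S2 by 0.70 and the calcium-binding S100A6 by -1.22. G0S2, an inhibitor of fat breakdown, was at 35.1 to 50.1 CPM in Sema and 26.7 to 40.2 in Ctrl, and at 721 to 1079 in SemaLPS and 602 to 800 in LPS, in S-gene-high cells, with overlap at both LPS levels. S100A6 was at 4.57 to 21.1 CPM (median 6.94) with the inhibitor and 11.2 to 29.1 (median 17.8) without it, again with overlap. Of 24 alternatives the call was lost in 7 for TIMP3, 12 for IL1RN, 18 for G0S2 and 17 for S100A6.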

How the data were processed

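The authors deposited raw UMI counts of genes and hashtags for every barcode called as a cell. The matrices come from Cell Ranger 6.0.1 per the file headers. The submitters' processing notes instead list Cell Ranger 3.0.2, next to Seurat 4.1.1 and the build hg38. Which annotation release was used is not given in the sources used. The 2 libraries (10x 3' chemistry) hold 28943 barcodes, of which 24662 had a leading hashtag with at least 30 UMIs and 3 times the next. Removing 357 of these with under 1000 genes and 7368 with over 10% mitochondrial UMIs left 16937 cells. No doublet caller was run beyond the hashtags.

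Counts of each culture's chosen cells, and of its other cells, were summed over both libraries. They were tested in edgeR 4.0.16 (R 4.3.3) by the quasi-likelihood test after TMM scaling and filterByExpr (1 fit of 12 cultures, or 24 sums with culture as a block for comparisons between classes), with Benjamini-Hochberg adjustment over 9524 genes. The count filter read the sums of the chosen cells only, also in the comparisons between classes. Counts of calls leave out the 16 rule genes (9508 genes) or all cell cycle lists (9353). Standard errors are the absolute log2 change over the root of F. CPM are per 1e6 scaled UMIs in a fit, so a gene's level differs slightly between fits, and list sums are of unscaled CPM. Shares were compared by exact permutation over cultures (400 arrangements). Named genes are, per comparison, up to 8 largest rises and 8 largest falls among called genes of at least 20 CPM whose groups do not overlap, up to 4 of the smallest p from each list, the rule genes and HES1. The text gives a part of these, and 1 called checkpoint and repair gene is not reported here. Alternatives were DESeq2 1.42.0, its size factors, no count filter, a replicate block, each library, other gates, thinning to 10000 UMIs and leaving out each culture. The scripts were tested on simulated data. Members and gene lists were chosen with earlier results of these data known.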

Additional observations from a re-analysis of the deposited data

Results flagged for a closer look

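These genes are listed because their response to a treatment differed between S-gene-high cells and the other cells of the same cultures by an edgeR test of the difference itself. For LPS, the log2 response of S-gene-high cells minus that of the other cells was 1.28 for EMP1, 0.854 for BCL2A1, 0.818 for RASGEF1B, 0.736 for CCSAP, 0.519 for FABP5, 0.628 for CD9, 0.371 for SPP1, 1.306 for ATF3 and 2.192 for IFIT1. It was -0.629 for IL7R and -0.605 for IL6ST. For the inhibitor, it was 1.76 for TIMP3, 1.038 for IL1RN, 0.7 for G0S2 and -1.223 for S100A6. Groups of 3 cultures were too small to look for single cultures apart from the others.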

How the results depend on the processing

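Of 1956 alternative values of the 85 named genes, 1833 kept call and direction, 122 lost the call and 1 reversed (IL1RN, inhibitor response against other cells, -0.052 with as many other cells as members drawn). The cause was not tested for any value here.

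Counts of called genes moved as follows. For LPS (3825) they were 2339 in library 1, 2439 in library 2 and 5962 with no limit on G2M genes, an alternative chosen after seeing the data like the limit of 60000 UMIs. For the inhibitor (1) they were 0 in DESeq2, library 2, at a hashtag ratio of 10, with no G2M limit and at 60000 UMIs, 3 in library 1 and 24 with no count filter. Sema against Ctrl (0) gave 21 with no filter and 1 in library 1, and SemaLPS against LPS (0) gave 27 with no filter. The LPS response against other cells (218) gave 27 in library 1, 65 in library 2, 1638 with no G2M limit, 41 with as many other cells drawn and 358 with G2M cells left out of these. The inhibitor response against other cells (4) gave 0 in DESeq2, library 2, at a ratio of 10, an S threshold of 3, no G2M limit and 60000 UMIs, 2 in library 1 and with DESeq2 size factors, 53 with no filter and 1 with as many other cells drawn. Members against other cells (4605) gave 2791 in library 2, 5416 with no count filter and 8284 with no G2M limit.

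The share difference with LPS (-2.04) was -1.98 at an S threshold of 3 and -1.90 at a ratio of 10, both with an adjusted exact permutation p of 0.03. It was -1.62 after thinning (adjusted p = 0.3), and -1.65 with unscaled UMIs and -1.61 with mitochondrial UMIs up to 20% (both 0.21). SemaLPS against LPS (0.104) reversed to -0.068 after thinning, -0.064 at a ratio of 10 and -0.117 in library 1. Among cells of either class, the inhibitor difference (-0.44) reversed to 0.086 after thinning, 0.387 at an S threshold of 1.5 and 4.67 with no G2M limit, and the LPS difference (-2.35) to 1.54 after thinning.

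Leaving out 1 culture gave 3460 to 3830 genes for LPS, 0 to 5 for the inhibitor, 0 to 2 for Sema against Ctrl, 0 to 6 for SemaLPS against LPS, 142 to 245 and 1 to 9 for the 2 response differences and 4278 to 4469 for members against other cells. Share differences ranged from -2.41 to -1.59 (LPS), 0.59 to 1.41 (inhibitor), 1.08 to 2.71 (Sema against Ctrl) and -0.341 to 0.645 (SemaLPS against LPS), and among cells of either class from -3.50 to -0.682 (LPS) and -2.10 to 0.807 (inhibitor).

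With the culture number as a replicate block, 3887 genes were called for LPS, 1 for the inhibitor, 1 for Sema against Ctrl, 0 for SemaLPS against LPS, 280 and 13 for the response differences and 4691 for members against other cells. Deviations of same-numbered cultures correlated at -0.008 to 0.122 over 5416 genes and those of differently numbered ones at -0.119 to 0.03; 12 of 12 cultures correlated best with their own number, a hint from the data only, since the labels do not say what the number means. Depth limits the least filled culture, LPS-3, to 911916 UMIs in 25 cells.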
